A study of Mus musculus with 6 samples.

Results

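The Serpin A family was examined through 9 genes, Serpina1e, Serpina3k, Serpina3m, Serpina3n, Serpina6, Serpina7, Serpina10, Serpina11 and Serpina12. They were chosen with earlier results of these data known and taken by gene name from a liver expression table of 41838 loci. All 9 were found and all 9 had a mean of at least 1 FPKM, a read density per gene length and library size. The table holds 27 loci named Serpina, of which 17 passed that filter on low values. Poly(A) RNA was sequenced from 3 livers of Alkbh5-HKO mice, whose genotype label reads Alkbh5-CKO, and from 3 livers of Alkbh5flox/flox mice, called flox here. Alkbh5 encodes an enzyme that removes the methyl group of N6-methyladenosine from RNA, and the series asked what it does in liver. Both groups were on normal chow, for 9 weeks in one description and to an age of 9 weeks in another. The labels name neither the agent that deletes the gene, nor its promoter, the deleted exons or the sex of the mice. The replicates are labelled as independent biological samples.

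Serpins are proteins that fold into a strained shape with an exposed loop, which a target protease cuts. The cut springs the loop into the body of the serpin and traps the protease. Clade A is the largely secreted clade, made above all by hepatocytes, and it includes alpha-1-antitrypsin, antichymotrypsin and the inhibitor of factor X. A pair of its members, Serpina6 and Serpina7, have lost protease inhibition and use the same fold to carry steroid and thyroid hormones in blood. Mice carry several copies of the antitrypsin and antichymotrypsin genes.

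Recovered depth was 14907384 to 17034754 reads per library. Alkbh5 itself was at 0.476 ± 0.0322 FPKM in HKO livers and 16.5 ± 1.56 FPKM in flox livers (SD, n = 3 each), a log2 fold change of -3.56 (limma, Benjamini-Hochberg (BH) adjusted p = 8.14e-05). The deposited FPKM imply a library size of 1.02, 1.08 and 1.01 times the sum of gene reads in HKO libraries 1 to 3, against 0.952, 0.925 and 1.08 times in flox libraries 1 to 3. FPKM of flox library 3 and of all 3 HKO libraries are therefore scaled down relative to flox libraries 1 and 2. No source used here states why. Rescaling to the sum of recovered reads moved the median log2 fold change over tested genes, HKO minus flox, from -0.02 to 0.05. The log2 fold change of Serpina3k moved from -1.21 to -1.13. Fold changes below are log2 of FPKM + 1, HKO minus flox, and adjusted p-values come from limma over all 10453 tested genes.

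None of the 9 members passed that test, where 0.488% of all tested genes did, 0.268% as higher and 0.220% as lower. Serpina6 came nearest, at 2.0 times its flox level. Serpina3k, Serpina12 and Serpina11 were lower in every HKO library than in any flox library. Serpina1e, the most abundant member, was lower on average, with overlapping groups. At an unadjusted limma p under 0.05 there were 5 members (Serpina1e, Serpina3k, Serpina6, Serpina11 and Serpina12) of 9, against 17.0% of all tested genes. With voom on recovered reads 1 member, Serpina6, passed. The groups did not overlap in 1 member that was higher and 3 that were lower in HKO livers, beside 12.8% and 12.6% of all tested genes, and 25.4% in either direction. A log2 fold change of at least 1 in size was reached by 3 members (Serpina3k, Serpina6 and Serpina12) and by 2.84% of all tested genes. The members' median log2 fold change was -0.41, with 3 above 0 and 6 below, whereas over all tested genes the median was -0.02, with 5022 above and 5431 below. The 8 other tested Serpina loci had a median of 0.04, with 4 above 0 and 4 below. The members were not chosen independently of these data, so their counts and median are a description only. In bulk liver, fewer cells that make a transcript and less transcript per cell cannot be told apart.

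**Figure D1:**
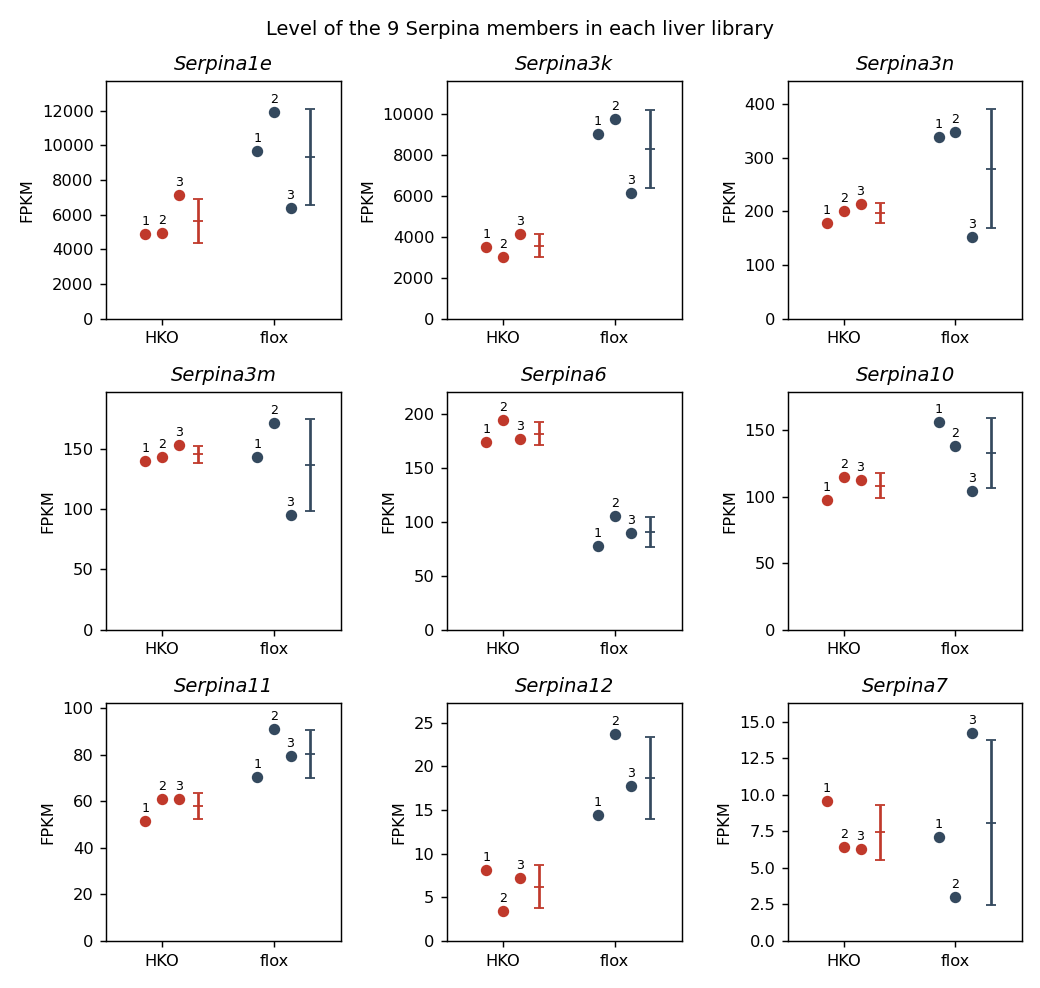
FPKM of each member in the 3 HKO libraries (left of each panel) and the 3 flox libraries (right), with library numbers beside the points and bars for the mean and SD (n = 3). Serpina6 lay at 174 to 195 in HKO and 77.7 to 105 in flox, and Serpina3k at 3023 to 4131 in HKO and 6135 to 9721 in flox. Flox library 3 was the lowest of its group for Serpina1e, Serpina3k, Serpina3n, Serpina3m and Serpina10.

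Serpina6 encodes corticosteroid-binding globulin, the plasma carrier of glucocorticoids. It lies on chromosome 12 at 103646630 to 103657218 on the minus strand (GRCm38.p6). It was at 174, 195 and 177 FPKM in HKO libraries 1 to 3, against 77.7, 105 and 89.3 FPKM in flox libraries 1 to 3, from 4285 to 5746 reads in HKO and 2020 to 2358 in flox. Every HKO library lay above every flox library, with a gap wider than the range within either group. The means were 182 ± 10.9 FPKM in HKO and 90.8 ± 13.8 FPKM in flox, a log2 fold change of 1.005 (SE 0.16, 95% interval 0.64 to 1.37). The limma BH adjusted p was 0.0525, just outside the threshold of 0.05. It passed in 7 of 17 alternatives, all of them settings of scaling, filter or test, and in none of those that left out a library.

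Serpina7 encodes thyroxine-binding globulin and is the 1 member outside chromosome 12, on chromosome X at 139079249 to 139085270, minus strand. It was at 9.58, 6.42 and 6.27 FPKM in HKO libraries 1 to 3, against 7.09, 3.01 and 14.2 FPKM in flox libraries 1 to 3. The flox libraries held both the highest and the lowest value, and 4.72 times separated them. The means were 7.42 ± 1.87 FPKM in HKO and 8.10 ± 5.66 FPKM in flox (log2 0.07, 95% interval -1.01 to 1.15, limma BH adjusted p = 0.948). The log2 was -0.42 without flox library 2, -0.105 without HKO library 1 and 0.54 without flox library 3. An interval this wide does not show that the groups were alike, and the log2 value was of the opposite sign to the difference of the means because of the log scale.

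Other genes of the axes that these carriers serve were taken from fixed lists. Of 14 tested genes of glucocorticoid transport and action 6 were above and 8 below 0, with a median log2 of -0.12, and none passed limma, with 2 at an unadjusted p under 0.05. The glucocorticoid receptor Nr3c1 was at 9.53 ± 2.64 FPKM in HKO and 7.54 ± 0.224 FPKM in flox (limma BH adjusted p = 0.475). Its groups did not overlap, narrowly, at 7.93 FPKM in HKO library 3 and 7.68 FPKM in flox library 3. Groups also did not overlap in Akr1d1, which was higher, and in Hsd17b2, H6pd and Srd5a1, which were lower. Of all tested genes 12.8% were higher and 12.6% lower without overlap. The cortisone-activating enzyme Hsd11b1 was at 265 ± 8.51 FPKM in HKO and 267 ± 33.6 FPKM in flox. The steroid reductase Akr1d1, which inactivates glucocorticoids, was at 42.2 ± 12.4 FPKM in HKO and 18.2 ± 4.96 FPKM in flox, without overlap (log2 1.16, limma BH adjusted p = 0.0911). The glucocorticoid-induced aminotransferase Tat was at 603 ± 189 FPKM in HKO and 1355 ± 773 FPKM in flox, with overlap.

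Of 13 tested genes of thyroid hormone transport and action 9 were above and 4 below 0 (median log2 0.13), and none passed limma, with 1 at an unadjusted p under 0.05. The other plasma carriers of thyroid hormone were transthyretin, Ttr, at 3763 ± 247 FPKM in HKO and 3813 ± 591 FPKM in flox, and albumin, Alb, at 36341 ± 3215 FPKM in HKO and 28517 ± 3175 FPKM in flox. Alb did not overlap between the groups (log2 0.35, limma BH adjusted p = 0.316). Under quantile scaling its log2 was 0, since it was the highest gene of every library and so received the same value in each. The deiodinase Dio1 was at 78.1 ± 35.2 FPKM in HKO and 132 ± 40.9 FPKM in flox, with overlap. Crym, which binds thyroid hormone inside cells, was the list member with the lowest p, at 2.11 ± 0.637 FPKM in HKO and 1.09 ± 0.226 FPKM in flox (limma BH adjusted p = 0.192).

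Serpina1e is 1 of the mouse copies of the antitrypsin gene, which inhibits neutrophil elastase in its founding form. It lies on chromosome 12 at 103946931 to 103956897, minus strand. It was at 4869, 4936 and 7124 FPKM in HKO libraries 1 to 3, against 9639, 11888 and 6390 FPKM in flox libraries 1 to 3, from 107111 to 226887 reads in each library. HKO library 3 lay above flox library 3, and every other HKO library lay below every flox library. The means were 5643 ± 1283 FPKM in HKO and 9306 ± 2764 FPKM in flox (log2 -0.70, SE 0.27, limma BH adjusted p = 0.246), so that HKO held 60.6% of the flox level. Quantile scaling gave a log2 of -0.38.

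The 4 other expressed copies, Serpina1a to Serpina1d, are not among the members but share sequence with Serpina1e. Together they were at 7364, 5792 and 6190 FPKM in HKO libraries 1 to 3, against 6073, 6348 and 5835 FPKM in flox libraries 1 to 3. Their log2 fold changes were -0.0007 for Serpina1a, 0.08 for Serpina1b, 0.15 for Serpina1c and -0.04 for Serpina1d, with limma BH adjusted p-values of 0.732 to 0.998. Those of Serpina1a and Serpina1d changed sign under quantile scaling, under TPM (FPKM rescaled to a common sum) and on the sum of recovered reads, and that of Serpina1a also under median-of-ratios scaling and voom. Serpina1e made up 39.8%, 46.0% and 53.5% of the FPKM of the 5 copies in HKO libraries 1 to 3, against 61.3%, 65.2% and 52.3% in flox libraries 1 to 3. The shares overlapped at HKO library 3 and flox library 3. They do not depend on the library size, as numerator and denominator come from the same library.

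**Figure D2:**
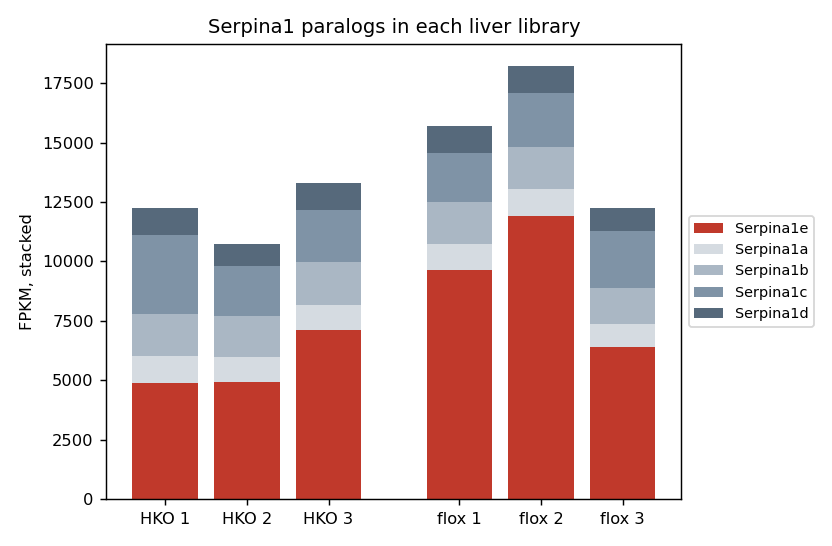
Stacked FPKM of Serpina1e (bottom) and of Serpina1a, Serpina1b, Serpina1c and Serpina1d in each library, HKO left and flox right, starting at 0. The stack totals were 10728 to 13314 in HKO and 12225 to 18236 in flox, and Serpina1a to Serpina1d together stayed between 5792 and 7364 in the 6 libraries.

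The copies can exchange reads in counting, so the sequence they share bears on these values. In GENCODE M21 transcripts, 7.57% of the 150-base windows of the longest Serpina1e transcript occurred unchanged in another Serpina transcript, that of Serpina1b. The share was 40.7% for Serpina1a, 16.4% for Serpina1b, 50.5% for Serpina1c and 20.2% for Serpina1d. The read length was 150 bases in pairs, and no source used here states how reads with several matches were treated. The values of all 5 copies are uncertain for that reason, and the shares of windows do not measure the size of the error. The Serpina1e transcript was 96.3% identical to that of Serpina1b and 92.1% to that of Serpina1a over the aligned bases.

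The promoters of the 5 copies are shown because Serpina1e and the other 4 had different values beside near-identical sequence. Promoter sequences are RefSeq's on GRCm38.p6, which matched 5 of the 9 members (Serpina1e, Serpina3n, Serpina7, Serpina11 and Serpina12). Each line is the same 96-base stretch upstream of the annotated start, 5′ to 3′ on the minus strand. In Serpina1e the capitals mark GTTAAT, the letters on which the 5 stretches were aligned. In the other lines the capitals mark the bases that differ from Serpina1e.
Serpina1e, chr12:103956960-103957055: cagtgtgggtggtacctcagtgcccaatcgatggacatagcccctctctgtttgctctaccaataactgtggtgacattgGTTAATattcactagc
Serpina1a, chr12:103863625-103863720: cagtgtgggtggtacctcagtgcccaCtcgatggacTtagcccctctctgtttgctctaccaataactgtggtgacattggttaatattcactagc
Serpina1b, chr12:103738200-103738295: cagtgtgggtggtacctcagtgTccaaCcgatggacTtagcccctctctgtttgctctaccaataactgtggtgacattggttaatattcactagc
Serpina1c, chr12:103904962-103905057: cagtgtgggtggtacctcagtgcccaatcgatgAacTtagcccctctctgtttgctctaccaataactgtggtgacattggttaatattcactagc
Serpina1d, chr12:103773634-103773729: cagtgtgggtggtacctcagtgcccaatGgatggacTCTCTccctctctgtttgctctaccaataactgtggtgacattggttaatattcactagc
Over this stretch Serpina1a and Serpina1c differed from Serpina1e at 2 bases each, Serpina1b at 3 and Serpina1d at 6. Exactly 1 difference, A37T counted from the first printed base, was common to the 4. GTTAAT began 78 bases upstream of the annotated start in Serpina1e and 21, 26, 27 and 16 bases upstream in Serpina1a, Serpina1b, Serpina1c and Serpina1d. The annotated start of Serpina1e thus lies further downstream of the shared stretch. GTTAAT in either strand was present in the 250 bases upstream of the start in 6.43% of 32851 RefSeq promoters, and a match of letters is not evidence that a factor binds.

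Serpina3k, Serpina3m and Serpina3n are mouse copies of the antichymotrypsin gene. Serpina3k, known as a kallikrein-binding protein, lies on chromosome 12 at 104338486 to 104345739, plus strand. It was at 3489, 3023 and 4131 FPKM in HKO libraries 1 to 3, against 8987, 9721 and 6135 FPKM in flox libraries 1 to 3, from 91594 to 102345 reads in HKO and 166046 to 239547 in flox. Every HKO library lay below every flox library, flox library 3 being the lowest of its group. The means were 3548 ± 556 FPKM in HKO and 8281 ± 1894 FPKM in flox, a log2 fold change of -1.21 (SE 0.22, 95% interval -1.72 to -0.69, limma BH adjusted p = 0.0725). HKO held 42.8% of the flox level. Serpina3k passed without flox library 3 (log2 -1.41, limma BH adjusted p = 0.0494), and its 17 alternatives gave limma BH adjusted p-values between 0.0494 and 0.221. Quantile scaling moved the log2 to -0.79.

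Serpina3m lies next to it, at 104387157 to 104394259 on the plus strand, and its transcript was 90.9% identical to that of Serpina3k. It was at 140, 143 and 153 FPKM in HKO libraries 1 to 3, against 143, 171 and 95.3 FPKM in flox libraries 1 to 3. The HKO values lay within the flox range (log2 0.13, 95% interval -0.39 to 0.64, limma BH adjusted p = 0.786). The log2 was 0.31 without flox library 2 and -0.11 without flox library 3. The ratio of Serpina3k to Serpina3m was 25.0, 21.2 and 27.0 in HKO libraries 1 to 3, against 62.8, 56.8 and 64.4 in flox libraries 1 to 3. The ratio separated the groups, did not depend on library size and, unlike the Serpina3k level itself, was not lowest in flox library 3. Of the 150-base windows of the Serpina3k transcript 0.262% occurred in that of Serpina3m.

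Serpina3n, the acute phase member of the group, which inhibits granzyme B in the mouse, lies at 104406698 to 104414334 on the plus strand. It was at 177, 201 and 213 FPKM in HKO libraries 1 to 3, against 339, 348 and 151 FPKM in flox libraries 1 to 3. Flox library 3 was the lowest of all 6 libraries, while flox libraries 1 and 2 were the highest. The means were 197 ± 18.2 FPKM in HKO and 279 ± 111 FPKM in flox (log2 -0.41, SE 0.32, limma BH adjusted p = 0.542). The log2 was -0.22 without flox library 1 and -0.20 without flox library 2. Without flox library 3 it was -0.80 (limma BH adjusted p = 0.0836, where its 17 alternatives ran between 0.0836 and 0.842).

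**Figure D3:**
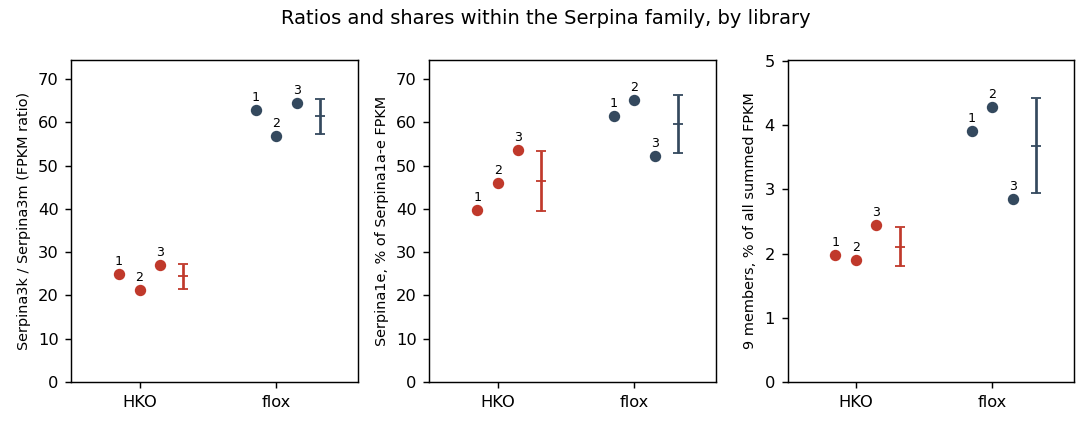
From left to right, the FPKM ratio of Serpina3k to Serpina3m, the share of Serpina1e in the FPKM of Serpina1a to Serpina1e, and the share of the 9 members in the summed FPKM, by library, with HKO left of flox and bars for the mean and SD (n = 3). The ratio of Serpina3k to Serpina3m was 24.4 ± 2.96 in HKO and 61.4 ± 4.02 in flox, and the members took 1.91% to 2.45% in HKO and 2.85% to 4.28% in flox.

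Because Serpina3n is an acute phase gene, the acute phase list was read beside it. Of 23 tested genes 8 were above and 15 below 0 (median log2 -0.23), and none passed limma, with 5 at an unadjusted p under 0.05. Serum amyloid Saa1 was at 49.5 ± 16.5 FPKM in HKO and 153 ± 82.0 FPKM in flox (log2 -1.46, limma BH adjusted p = 0.209), with overlap. Like Serpina3k, it passed without flox library 3 (log2 -2.03, limma BH adjusted p = 0.0494, the lowest of 17 alternatives that reached 0.469). In that setting 41 of all tested genes were called lower, against 23 with all 6 libraries. Saa3 was at 7.80 ± 2.39 FPKM in HKO and 13.3 ± 1.77 FPKM in flox, and Apcs, the serum amyloid P component, at 157 ± 29.4 FPKM in HKO and 98.2 ± 15.9 FPKM in flox. The last 2 genes were separated between the groups, Saa3 as lower and Apcs as higher in HKO livers. Of the 23 genes 2 were separated as higher and 1 as lower, beside 12.8% and 12.6% of all tested genes.

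Serpina10 encodes the protein Z-dependent protease inhibitor, which blocks factor Xa. It lies on chromosome 12 at 103616675 to 103631490, minus strand. It was at 98.0, 115 and 112 FPKM in HKO libraries 1 to 3, against 157, 138 and 104 FPKM in flox libraries 1 to 3. HKO library 1 was the lowest, and flox library 3 fell within the HKO range (log2 -0.28, 95% interval -0.70 to 0.15, limma BH adjusted p = 0.472). The log2 was -0.15 without flox library 1 and -0.44 without flox library 3. Its cofactor protein Z, Proz, was at 98.7 ± 11.7 FPKM in HKO and 102 ± 13.3 FPKM in flox. Its targets were at 208 ± 12.4 FPKM in HKO and 183 ± 16.4 FPKM in flox for F10, and at 52.9 ± 4.80 FPKM in HKO and 38.7 ± 11.4 FPKM in flox for F11. Of the 10 tested protease targets and partners 4 were above and 6 below 0 (median log2 -0.03), and 0 passed limma, with 0 at an unadjusted p under 0.05. The proteases Ctsg and Klk7, targets of antichymotrypsin and of vaspin, were listed at 0 in all 6 libraries. Granzyme B, Gzmb, was too low to be tested, at 1.05 ± 0.448 FPKM in HKO and 0.258 ± 0.0848 FPKM in flox.

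Serpina12 encodes vaspin, a secreted serpin first described in visceral fat that inhibits the protease KLK7. It lies on chromosome 12 at 104028769 to 104044443, minus strand. It was at 8.07, 3.40 and 7.16 FPKM in HKO libraries 1 to 3, against 14.4, 23.7 and 17.8 FPKM in flox libraries 1 to 3, from 230 to 477 reads in HKO and 859 to 1217 in flox. Every HKO library lay below every flox library. The means were 6.21 ± 2.48 FPKM in HKO and 18.7 ± 4.72 FPKM in flox, the largest fold difference of the 9 members (log2 -1.49, SE 0.30, 95% interval -2.20 to -0.78, limma BH adjusted p = 0.0834). HKO held 33.3% of the flox level. It did not pass in any of its 17 alternatives, and with a pseudocount of 5 the log2 was -1.08. Of the fat cell markers, Lep was listed at 0 in all libraries, and Adipoq and Plin1 were at no more than 0.0180 FPKM in the mean of either group. Cfd was listed at 0 in all HKO libraries and in flox libraries 1 and 2, and was at 1.25 FPKM in flox library 3.

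Serpina11 lies on chromosome 12 at 103980243 to 103989968, minus strand. It was at 51.5, 61.0 and 61.2 FPKM in HKO libraries 1 to 3, against 70.6, 90.9 and 79.6 FPKM in flox libraries 1 to 3. Every HKO library lay below every flox library. The log2 fold change was -0.46 (SE 0.15, 95% interval -0.82 to -0.11, limma BH adjusted p = 0.194).

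The upstream sequences of these separated members are given for comparison with the Serpina1 stretch. Each is the 120 bases before an annotated start, 5′ to 3′ on the minus strand, and capitals mark a match to TTCNNNGAA, the site read by STAT factors. The motifs searched on both strands of 250 upstream bases were GTTAAT and the STAT site just named, the glucocorticoid receptor half-site AGAACA, and the TATA box, spelled TATAAA, and no match overlapped one of another motif.
Serpina12, chr12:104044444-104044563: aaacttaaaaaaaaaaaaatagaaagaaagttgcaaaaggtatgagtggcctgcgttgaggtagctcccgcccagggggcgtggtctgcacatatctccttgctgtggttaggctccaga
Serpina11, chr12:103989944-103990063: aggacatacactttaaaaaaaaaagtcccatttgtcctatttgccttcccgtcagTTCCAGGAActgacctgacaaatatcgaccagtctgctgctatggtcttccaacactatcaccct
TTCNNNGAA was found in 7.02% of all promoters of that length, AGAACA in 16.1% and TATAAA in 12.4%. Serpina12 had no match to any of the 4 in its window, which says only that these letters are not there. AGAACA was found 183 bases upstream of the start in Serpina3n and, on the other strand, 224 bases upstream in Serpina1e, and also in Serpina1a to Serpina1d. Serpina7 had GTTAAT and TATAAA.

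The enzyme whose gene was targeted acts on a mark that is often set within GGACT. The longest GENCODE M21 transcript of Serpina1e held 0 copies of GGACT, as did those of Serpina1a to Serpina1d. That of Serpina6 held 3, Serpina3k 3, Serpina3m 1, Serpina3n 2, Serpina7 3, Serpina12 2, Serpina11 1 and Serpina10 10. Per kilobase this was 0 for Serpina1e, 1.87 for Serpina6, 1.46 for Serpina3k, 0.603 for Serpina3m and 0.969 for Serpina3n. It was 1.29 for Serpina7, 0.542 for Serpina12, 0.684 for Serpina11 and 2.86 for Serpina10. Over 21405 genes with a protein-coding transcript of at least 500 bases the median was 1.02 per kilobase, and 89% held at least 1. That background used protein-coding transcripts only, whereas the longest transcripts of the Serpina genes were taken whatever their type. The Serpina10 transcript was 3498 bases long, against a gene length of 1692 bases behind its FPKM. The letters do not show whether a site is methylated.

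The order of levels, per length, was led by Serpina1e and Serpina3k in both groups. In HKO livers Serpina3n, Serpina6, Serpina3m, Serpina10, Serpina11, Serpina7 and Serpina12 followed, and the library ranges of neighbours overlapped for Serpina3n with Serpina6 and for Serpina7 with Serpina12. In flox livers Serpina3n was followed by Serpina3m, Serpina10, Serpina6, Serpina11, Serpina12 and Serpina7, and ranges overlapped for Serpina1e with Serpina3k and for each neighbouring pair from Serpina3n to Serpina11. Serpina6 thus stood in place 4 in HKO and in place 6 in flox. Serpina1e and Serpina3k made up 91.7% to 93.9% of the members' summed FPKM in HKO and 95.8% to 96.1% in flox. The other 7 members summed to 658 to 730 FPKM in HKO and 552 to 880 FPKM in flox, with overlap.

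**Figure D4:**
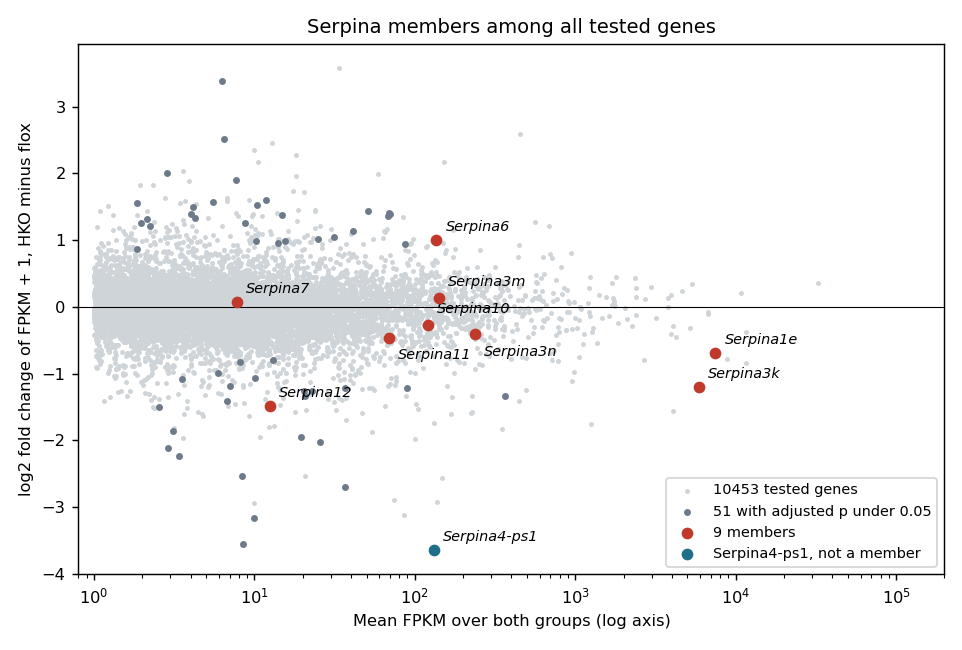
Log2 fold change of FPKM + 1, HKO minus flox, against mean FPKM on a log axis for the 10453 tested genes (light grey), the 51 with an adjusted p under 0.05 (dark grey), the 9 members (red) and Serpina4-ps1 (blue). Serpina1e and Serpina3k lie among the most abundant genes at -0.70 and -1.21, and Serpina6 lies at 1.005.

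The 26 Serpina loci of chromosome 12 occupy 103616675 to 104414334, a stretch of 798 kb with 4 loci of other names. Values differed between direct neighbours. Serpina10 and Serpina6 lie side by side at log2 values of -0.28 and 1.005, and Serpina3k and Serpina3m at -1.21 and 0.13. The lowest value lay between Serpina12 and the Serpina3 genes, at the transcribed pseudogene Serpina4-ps1, which is not a member. It was at 31.1, 5.52 and 17.9 FPKM in HKO libraries 1 to 3, against 74.1, 249 and 413 FPKM in flox libraries 1 to 3. Every HKO library lay below every flox library, and values within each group differed by up to 5.64 times in HKO and 5.57 times in flox. Its log2 of -3.65 (SE 0.76) was the largest in size of all 10453 tested genes on the log2(FPKM + 1) scale, with a limma BH adjusted p of 0.0911. Alkbh5 was larger in size with a pseudocount of 0.1 (-4.84 for Alkbh5, -3.75 for Serpina4-ps1), under TPM and under voom. It was also larger without HKO library 2, without flox library 2 (-3.54 for Alkbh5, -3.48 for Serpina4-ps1) and without flox library 3 (-3.63 for Alkbh5, -3.11 for Serpina4-ps1). Under the alternatives the limma BH adjusted p of Serpina4-ps1 was 0.0794 to 0.276. Serpina3g and Serpina3f, intracellular members of the antichymotrypsin group in the mouse, were at 10.8 ± 4.41 and 2.92 ± 1.08 FPKM in HKO and at 5.50 ± 1.97 and 1.44 ± 0.658 FPKM in flox, with overlap (limma BH adjusted p of 0.268 for Serpina3g and 0.238 for Serpina3f).

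**Figure D5:**
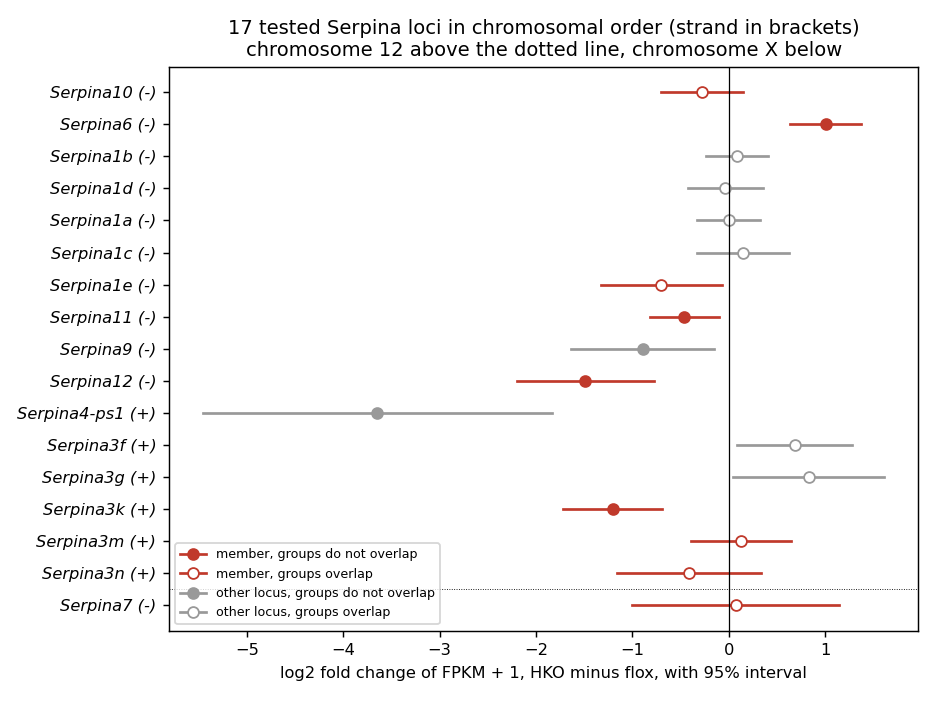
Log2 fold change of FPKM + 1, HKO minus flox, with its 95% interval for the 17 tested Serpina loci in chromosomal order, members in red and other loci in grey, filled where the groups do not overlap. Serpina6 at 1.005 lies beside Serpina10 at -0.28, and Serpina4-ps1 at -3.65 lies below all others.

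Genes whose profile was most like a member's were sought for the 3 members with the widest spread over the 6 libraries. Likeness was the root mean square difference of centred log2(FPKM + 1) over the 6 libraries, among 3829 genes with a mean of at least 10 FPKM outside the family. For Serpina12 these were the cytochrome P450 Cyp2d40 (difference 0.244), the glycogen-targeting phosphatase subunit Ppp1r3b (0.258) and the glucuronosyltransferase Ugt2b38 (0.301). For Serpina3k they were the glycine transporter Slc6a9 (0.128), the focal adhesion protein Tns1 (0.137) and the growth factor Fgf1 (0.140). For Serpina7 they were the ribosomal pseudogene Rpl23a-ps3 (0.262), the fatty acid hydroxylase Cyp4a14 (0.290) and the tetraspanin Cd9 (0.308). Slc6a9 shared with Serpina3k the highest HKO library, 3, and the lowest flox library, also 3, at 7.06, 8.0 and 9.13 FPKM in HKO libraries 1 to 3, against 22.5, 23.3 and 13.0 FPKM in flox libraries 1 to 3. Without flox library 3 Slc6a9 and Tns1 passed, at limma BH adjusted p-values of 0.0398 for Slc6a9 and 0.049 for Tns1. Both had been picked for likeness to Serpina3k in the same libraries, so this is not separate evidence. With 6 libraries and 3829 candidates a close match is a description only.

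A general list of 14 liver transcription factors had 2 above and 12 below 0 (median log2 -0.33). None passed limma, with 5 at an unadjusted p under 0.05. The part of these factors in the serpin values was not tested. Hnf4a was at 111 ± 25.6 FPKM in HKO and 160 ± 7.91 FPKM in flox (limma BH adjusted p = 0.216), and Onecut1 at 2.85 ± 1.47 FPKM in HKO and 10.8 ± 8.21 FPKM in flox (limma BH adjusted p = 0.210). Both were lower in every HKO library than in any flox library. Of 11 tested genes of growth hormone signalling 5 were above and 6 below 0 (median log2 -0.25), with none passing limma and 1, Igfals, at an unadjusted p under 0.05. Igfals, which encodes a subunit of the circulating IGF complex, was at 42.0 ± 6.38 FPKM in HKO and 62.3 ± 14.5 FPKM in flox.

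Markers of cell types were set beside these values, as hepatocytes make most clade A serpins. The 11 tested hepatocyte markers summed to 55741 to 60216 FPKM in HKO and 51722 to 63491 FPKM in flox (2 above 0, 9 below, median log2 -0.20). Alb was the largest part of these sums, at means of 36341 FPKM in HKO and 28517 FPKM in flox. Of these markers, 1 was separated as higher, Alb, and 1 as lower, Apoa1, beside 12.8% and 12.6% of all tested genes. Apoa1 was at 6822 ± 3083 FPKM in HKO and 10724 ± 1183 FPKM in flox. Sums that overlap therefore do not show that hepatocyte content was alike. Kupffer cell and monocyte markers summed to 139 to 233 FPKM in HKO and 130 to 213 FPKM in flox, with 4 of 10 tested above 0. Endothelial and stellate markers summed to 69.5 to 80.1 FPKM in HKO and 49.6 to 74.2 FPKM in flox, with 7 of 11 tested above 0. Lymphocyte and neutrophil markers summed to 6.03 to 6.79 FPKM in HKO and 4.12 to 9.81 FPKM in flox, with 2 of 3 tested above 0. Within these sums Nkg7, a cytotoxic lymphocyte gene, was at 1.39 ± 0.0819 FPKM in HKO and 0.723 ± 0.178 FPKM in flox (log2 0.48, limma BH adjusted p = 0.156). The monocyte gene Ly6c2 was at 2.55 ± 1.47 FPKM in HKO and 0.506 ± 0.205 FPKM in flox (log2 1.14, limma BH adjusted p = 0.167). It passed without HKO library 3 (log2 1.55, limma BH adjusted p = 0.0382, the lowest of 16 alternatives that reached 0.384). Both were higher in every HKO library than in any flox library, as was Gzmb, and their part in the Serpina3g and Gzmb values was not tested. None of these lists had a gene that passed limma with all 6 libraries. Red cell markers summed to 105 to 209 FPKM in HKO and 352 to 674 FPKM in flox, and all 5 tested were separated and lower. Of them the globin Hbb-bt fell, to 7.46 ± 2.34 FPKM in HKO against 31.7 ± 9.35 FPKM in flox (log2 -1.95, limma BH adjusted p = 0.0373). This call was lost in 5 of 17 alternatives, with no filter (limma BH adjusted p = 0.123) and without HKO library 1 (0.111), HKO library 2 (0.121), flox library 1 (0.153) or flox library 2 (0.118). The part of red cell RNA in the serpin values was not tested. Of the pancreatic markers, Prss2, Cpa1, Pnlip and Amy2b were listed at 0 in all libraries, whereas the elastase Cela1 was at 18.2 ± 3.45 FPKM in HKO and 18.4 ± 1.41 FPKM in flox.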

How the data were processed

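The deposited values are the authors' FPKM, with 1 column per library and with gene lengths. Per the series text, read pairs were aligned to GRCm38.p6 with HISAT2 2.0.5 and counted with featureCounts 1.5.0-p3. Per the submitters' processing notes, CASAVA and DESeq2 1.20.0 were also used. No source used here states the annotation, the strand setting or how multiply matching reads were treated. FPKM times gene length came out as whole multiples of 1 step for 100% of values (tolerance 0.001), which gave the reads back.

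Genes with a mean of at least 1 FPKM were tested with limma 3.58.1 (trend and robust, statmod 1.5.0, R 4.3.3) on log2(FPKM + 1), over all 6 libraries with no covariate, and with BH adjustment at 0.05. The scripts were tested on simulated data. Figures were drawn with Python 3.11.15 and matplotlib 3.10.9. The members and lists were chosen with earlier results of these data known, so lists are described by counts and medians with no test. Named genes were the members, list genes and, for the 3 members of widest spread, the nearest profiles. A pair of libraries of 1 group differed by 28.3 to 63.0 chi-square per degree of freedom, so none was a copy. The marker symbol Tf was not matched. Promoters were RefSeq's and transcripts GENCODE M21's, both on GRCm38. The result of 1 listed transcription factor is not reported here.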

Additional observations from a re-analysis of the deposited data

How the results depend on the processing

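Alternatives were pseudocounts of 0.1 and 5, no filter, a mean of at least 5 FPKM, median-of-ratios and quantile scaling, TPM, limma without trend and robust, a replicate block, leaving out single libraries, voom on recovered reads and, chosen after seeing the data, rescaling to the sum of recovered reads. Of the members' values 142 kept direction and call, 8 gained a call and 3 changed sign. The members called higher became 1 instead of 0, Serpina6, with a mean of at least 5 FPKM, median-of-ratios scaling, quantile scaling, TPM, limma without trend and robust, voom and the sum of reads. The members called lower were 0 to 1 with a library left out, the 1 being Serpina3k without flox library 3. Over all genes 28 were called higher and 23 lower. These counts were 18 higher with a pseudocount of 0.1, and 0 higher and 1 lower with no filter, where 2514 genes had an unadjusted limma p under 0.05. With a library left out they were 0 to 29 higher and 1 to 41 lower, with 29 and 41 both reached without flox library 3. Without HKO library 1, HKO library 2, flox library 1 or flox library 2 the higher calls were 1, 0, 0 and 0 (1645, 1386, 1209 and 1198 genes at an unadjusted limma p under 0.05). Deviations of same-numbered libraries from their group means had correlations of 0.153, -0.145 and -0.0514 for replicates 1 to 3. With 3 libraries per group, these cannot settle whether same-numbered libraries were paired. With the replicate block 1 gene was called higher and 8 lower, 6 of them shared with the calls without it. The cause of these shifts was not tested.

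With a library left out, log2 values that changed sign ran from -0.109 to 0.31 for Serpina3m, -0.419 to 0.542 for Serpina7, -0.0649 to 0.0487 for Serpina1a, -0.0586 to 0.261 for Serpina1c, -0.133 to 0.0783 for Serpina1d, -0.136 to 0.0899 for Ttr, -0.0966 to 0.0856 for Hsd11b1, -0.118 to 0.0598 for Proz, -0.546 to 0.357 for Rpl23a-ps3, -0.667 to 0.501 for Cyp4a14 and -0.196 to 0.421 for Cd9. Under median-of-ratios scaling Serpina1a was at 0.0152, Ttr at 0.0068 and Hsd11b1 at 0.0133. Under quantile scaling Serpina1a was at 0.167, Serpina1d at 0.0767, Ttr at 0.156, Hsd11b1 at 0.0402 and Cyp4a14 at 0.00209. Under TPM Serpina1a was at 0.0765, Serpina1d at 0.0415, Ttr at 0.0681, Hsd11b1 at 0.0745, Proz at 0.0345 and Cyp4a14 at 0.051. Under voom Serpina1a was at 0.0134, Ttr at 0.00506 and Hsd11b1 at 0.0117. On the sum of reads Serpina1a was at 0.0738, Serpina1d at 0.0389, Ttr at 0.0655, Hsd11b1 at 0.0717, Proz at 0.0318 and Cyp4a14 at 0.0468. Cd9 was at -0.00269 with a pseudocount of 5.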

Other observations

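Serpins of other clades were measured in the same livers. Of 9 tested, 5 were above and 4 below 0 (median log2 0.06), and none passed limma, with 2 at an unadjusted p under 0.05. Serpinb9, an intracellular inhibitor of granzyme B, was at 3.46 ± 0.724 FPKM in HKO and 1.31 ± 0.281 FPKM in flox (log2 0.94, limma BH adjusted p = 0.0706). Serpind1, which encodes heparin cofactor II, was at 254 ± 18.2 FPKM in HKO and 199 ± 17.6 FPKM in flox (log2 0.35, limma BH adjusted p = 0.256). In both genes every HKO library lay above every flox library. The lymphocyte gene Nkg7 and the monocyte gene Ly6c2 were also higher in every HKO library, and their part in the Serpinb9 value was not tested. Serpine2, an inhibitor of thrombin and urokinase, was at 0.828 ± 0.0916 FPKM in HKO and 1.40 ± 0.620 FPKM in flox, with overlap.

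Genes that fold, export or clear secreted serpins were read from a list of 12, of which 4 were above and 8 below 0 (median log2 -0.17). None passed limma, with 2 at an unadjusted p under 0.05. The ubiquitin ligase Syvn1, which degrades misfolded secretory proteins, was at 18.0 ± 0.393 FPKM in HKO and 29.7 ± 4.85 FPKM in flox, without overlap (log2 -0.68, limma BH adjusted p = 0.0911).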
